A study of Homo sapiens with 6 samples.

Results

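The BCL2 family decides whether a cell opens the outer membrane of its mitochondria and dies by apoptosis. Its regulation was followed in breast cancer cells given activin B, through all probe sets whose gene symbol on the array annotation was one of 10 family members: BCL2, BCL2L1, MCL1, BAX, BAK1, BBC3, PMAIP1, BCL2L11, BID and BMF. Of 54613 probe sets tested, 30 carried the symbol of exactly 1 member, and these 30 covered 9 of the 10 genes. The only probe set that listed BBC3 (also called PUMA) listed 2 microRNA genes as well, so no value is given under its name.

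SUM-LM1 is a subline of SUM159, a human breast cancer line, with the ability to colonise the lung, and both groups were cells of this 1 line. All cells were kept for 6 h in ultra-low attachment plates, at 12500 cells per ml, in HuMEC medium with 0.1% BSA. The 3 activin B samples received activin B, a TGF-beta family ligand made as a recombinant protein, at 50 ng/ml, and the 3 vehicle samples received BSA in PBS alone. The replicates were labeled as biological. P values measure only the spread between replicates, where that of each probe set is moderated toward a value pooled over all probe sets. RNA from each sample was read on a human expression array as a log2 signal, in which a difference of 1 is a factor of 2.

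Family members fall into 3 classes. The pro-survival proteins (BCL2, BCL-XL from BCL2L1, and MCL1) hold the effectors BAX and BAK in check, and the effectors, once released, form pores in the mitochondrial membrane. BH3-only proteins (PUMA, NOXA from PMAIP1, BIM from BCL2L11, BID and BMF) sense stress and either neutralise the pro-survival proteins or activate the effectors. BIM and BMF are known to be raised by TGF-beta in epithelial cells and to act in anoikis, the death of cells that lose their attachment. Much of the control of these proteins, such as cleavage of BID and degradation of MCL1, acts on the protein and is not read by an RNA array.

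Differences between activin B and vehicle were small throughout the family. None of the 30 probe sets passed at an adjusted P under 0.05 by limma, where 0.121% of all probe sets did, and with 1 probe set per gene none of 9 genes passed, where 0.192% of all genes did. At an unadjusted P under 0.05 there were 3 of 30 probe sets, 2 of MCL1 and 1 of BCL2L11, against 5.28% of all probe sets. The activin B and vehicle values did not overlap in 4 of 30 probe sets, against 9.79% of all probe sets. Log2 changes ran from -0.10 to 0.27, with 16 probe sets higher and 14 lower in activin B and a median of 0.0025, beside -0.0012 over all probe sets. The smallest change that passed anywhere on the array was 0.37 in size, larger than that of any member.

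The response of the cells to the ligand was plain on the same arrays. ID3, an inhibitor of DNA binding, rose from 8.51 ± 0.26 to 11.36 ± 0.28 (SD, n = 3; limma, adjusted P = 6.81e-08), and KRT15, a basal keratin, fell by 1.05 on the log2 scale (limma, adjusted P = 1.13e-06). Of 6 activin response genes listed as a check of the treatment, 5 rose and 1 fell; they were picked with earlier results of these arrays known, so they are no independent evidence. Of 11 markers of breast cancer lines, read in vehicle against a median of 6.69 over all probe sets, the mesenchymal VIM, CD44 and FN1 lay between 12.50 and 13.89, and EPCAM, CDH1 and PGR lay between 6.20 and 6.51. The epithelial keratins did not follow the latter, with KRT18 at 12.09, the basal KRT5 at 7.55 and KRT8 between them, and the receptors ERBB2 and ESR1 stood at 7.96 and 6.81, so the list as a whole was mixed. None of the endothelial (5), leukocyte (4) or fibroblast (5) markers read passed, and their summed log2 signals in vehicle and activin B ran from 32.94 to 33.80 and from 32.82 to 32.92 for the first, from 25.72 to 25.96 and from 25.62 to 26.46 for the second, and from 42.41 to 42.78 and from 42.70 to 43.15 for the third. In vehicle, the fibroblast markers COL1A1, PDGFRA and DCN read 11.44, 10.30 and 8.11, and LUM and DPT read 6.26 and 6.47. The endothelial PECAM1 read 7.84, and the other endothelial markers lay between 6.08 and 6.70. The leukocyte markers lay between 6.22 and 6.75. The fibroblast and endothelial lists were thus mixed, and the source of their brighter signals was not tested. Activin B replicate 3 stood apart on the first principal component, at 21.7 against -10.6 to 5.70 for the other arrays, and no member probe set passed without it either.

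**Figure D1:**
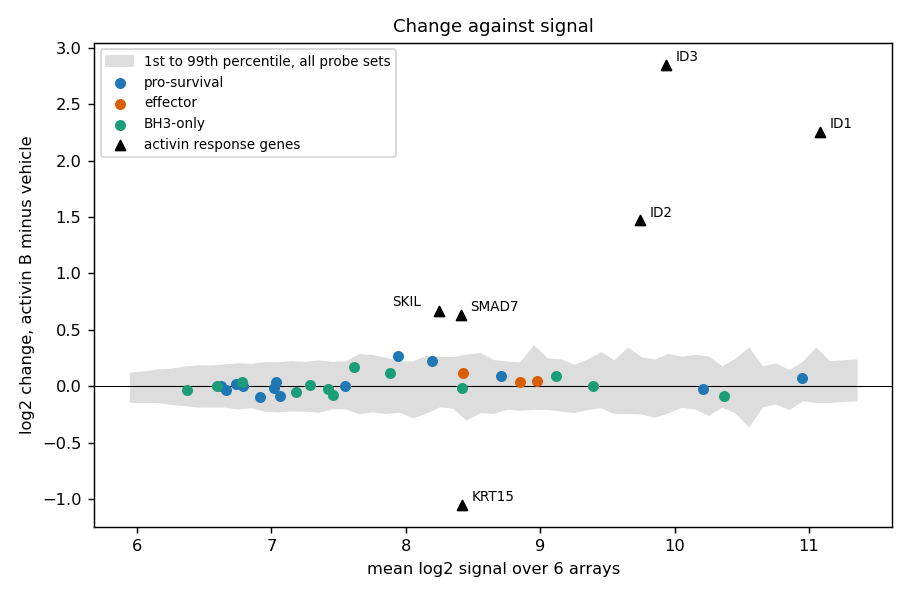
Log2 change, activin B minus vehicle, against the mean log2 signal over 6 arrays, for the 30 BCL2 family probe sets (colored by class) and 6 activin response genes (black triangles), over a grey band from the 1st to the 99th percentile of all probe sets at that signal, drawn where at least 100 probe sets share a bin of 0.1. Members lie between -0.10 and 0.27, while ID3 lies at 2.85 and KRT15 at -1.05.

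The intervals around these small differences were narrow. The 95% interval of every member probe set lay inside ±0.5 on the log2 scale, a factor of 1.41 either way. So did those of 99.7% of all probe sets. Those of 27 of the 30 member sets lay inside ±0.3, a factor of 1.23, against 92.8% of all probe sets. The widest excursions were the lower bound of a BCL2L11 probe set at -0.26 and the upper bound of an MCL1 probe set at 0.44. These bounds describe array signals, in which differences near background are compressed. Of the 30 probe sets, 2 of BCL2 and 2 of BCL2L11 lay under the median signal of all probe sets. Only 22 had a mean of 7 or more, and none of these read BCL2.

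**Figure D2:**
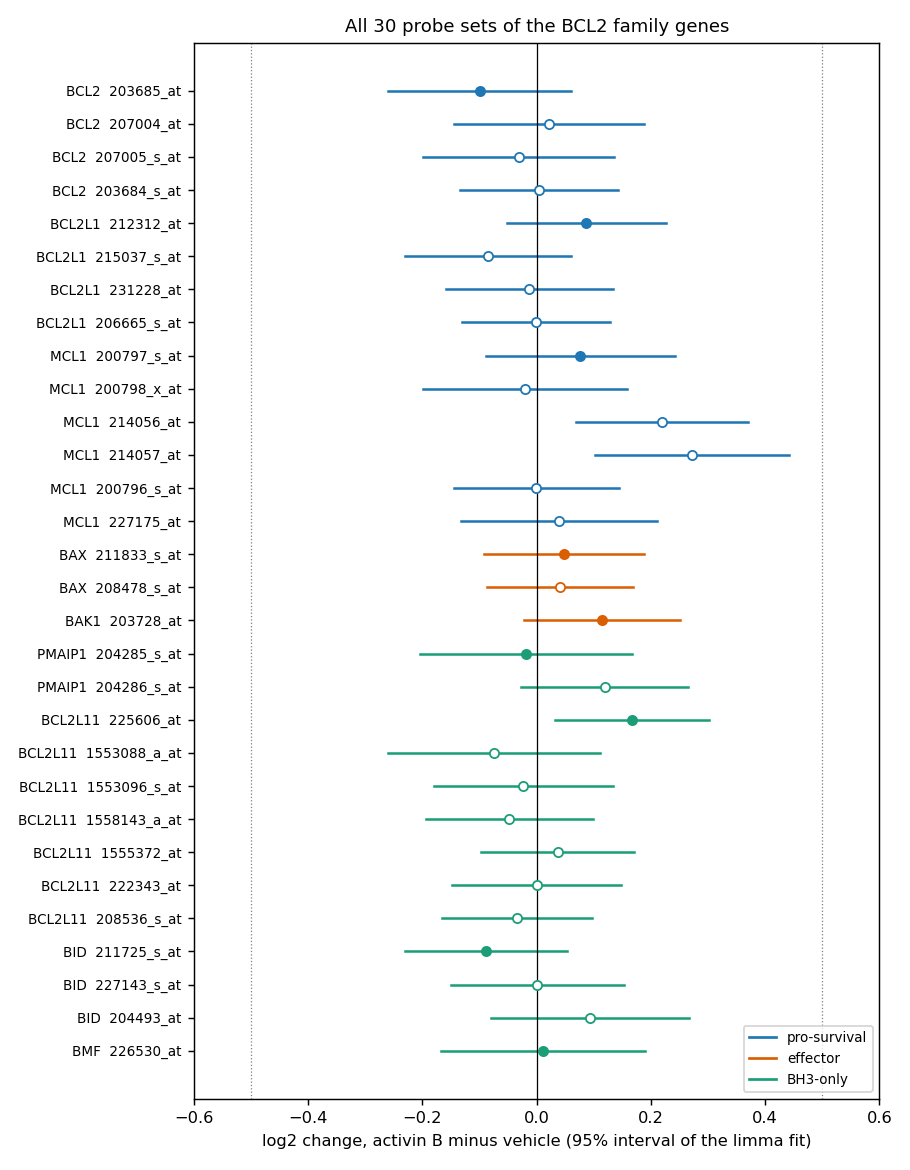
Log2 change, activin B minus vehicle, of all 30 probe sets with the 95% interval of the limma fit, colored by class; filled points mark the probe set with the highest mean signal of each gene and dotted lines stand at ±0.5. Only the intervals of 2 MCL1 probe sets and 1 BCL2L11 probe set leave out 0, and no interval reaches 0.5 in size.

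Among the pro-survival genes, BCL2, the founding member of the family, had signals close to the median of all probe sets. Its brightest probe set read 7.05, 6.86 and 6.98 in vehicle and 6.72, 6.93 and 6.93 in activin B. The 2 groups overlapped, and activin B replicate 1 lay lowest. The log2 change was -0.10 ± 0.08 (SE; 95% interval -0.26 to 0.06; adjusted P = 0.995), and the other 3 probe sets of BCL2 had changes between -0.03 and 0.02.

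BCL2L1 encodes BCL-XL and, by alternative splicing, the shorter BCL-XS, which promotes death. Its brightest probe set read 8.71, 8.71 and 8.57 in vehicle and 8.80, 8.74 and 8.71 in activin B, and the values of vehicle replicate 2 and activin B replicate 3 coincided. The log2 change was 0.09 ± 0.07 (SE; 95% interval -0.05 to 0.23; adjusted P = 0.995). The 3 dimmer probe sets leaned the other way, with changes of -0.09, -0.01 and less than 0.01 in size. The annotation does not say which splice form each probe set reads.

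MCL1, a short-lived pro-survival protein whose transcript turns over quickly, had 6 probe sets that did not behave alike. The brightest read 11.03, 10.92 and 10.78 in vehicle and 11.11, 10.93 and 10.92 in activin B, and the groups overlapped. The difference was 0.08 ± 0.08 (SE; 95% interval -0.09 to 0.24; adjusted P = 0.995). The next brightest, of the kind that can cross-hybridise, had a change of -0.02.

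Both probe sets of MCL1 with an unadjusted P under 0.05 were of intermediate signal. Probe set 214057_at read 8.00, 7.71 and 7.71 in vehicle and 8.10, 8.12 and 8.02 in activin B. All activin B values lay above all vehicle values, but vehicle replicate 1 came within 0.02 of the lowest of them. Its log2 change of 0.27 ± 0.08 (SE; 95% interval 0.10 to 0.44) was the largest of the family and did not pass (unadjusted P = 0.00395, adjusted P = 0.556), ranking 385 of 54613 by P. Probe set 214056_at read 7.98, 8.14 and 8.15 in vehicle and 8.21, 8.34 and 8.37 in activin B, again without overlap. Here the change was 0.22 ± 0.07 (SE; unadjusted P = 0.00720, adjusted P = 0.691). The 2 dimmest MCL1 probe sets had changes of 0.04 and less than 0.01 in size. Averaged over all 6 probe sets, the log2 change of MCL1 was 0.10 (limma, unadjusted P = 0.0893, adjusted P = 0.878 over all genes averaged this way).

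**Figure D3:**
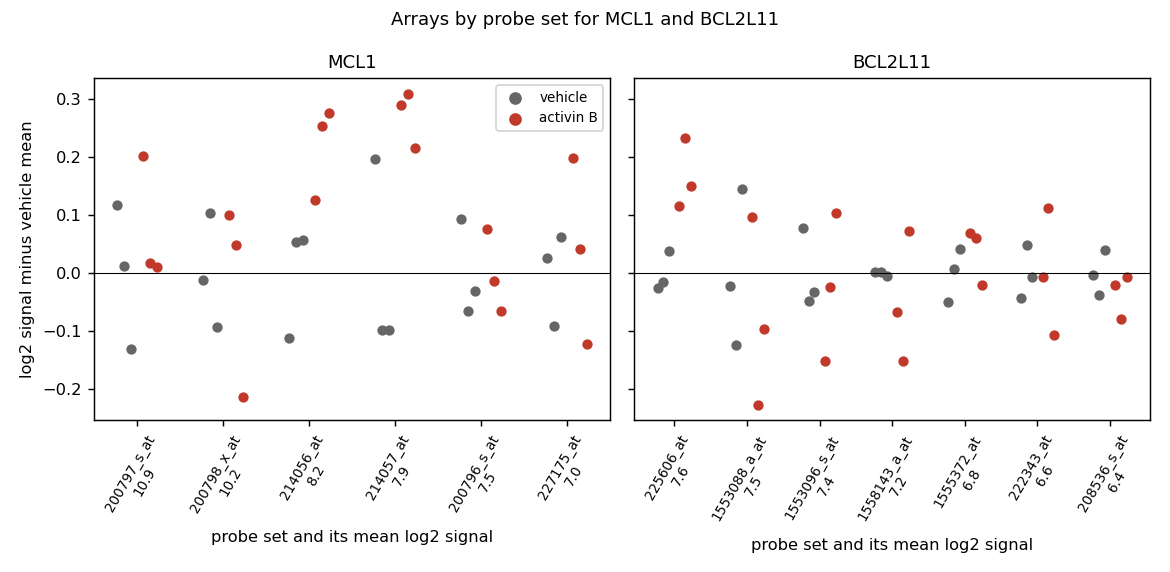
Deviation of each array from the mean of the vehicle arrays, in log2 signal, for the 6 probe sets of MCL1 and the 7 of BCL2L11, ordered by mean log2 signal, which is given under each name; grey points are vehicle arrays and red points activin B arrays. The groups separate in 214056_at and 214057_at of MCL1 and in 225606_at of BCL2L11, and overlap in the other probe sets.

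The effectors BAX and BAK1 showed small positive differences. BAX read 9.02, 8.93 and 8.89 in vehicle and 8.95, 8.97 and 9.07 in activin B in its brightest probe set, a change of 0.05 ± 0.07 (SE; 95% interval -0.09 to 0.19; adjusted P = 0.999), and its other probe set had a change of 0.04. BAK1, read by a single probe set, stood at 8.31, 8.38 and 8.41 in vehicle and 8.44, 8.55 and 8.46 in activin B. Its groups did not overlap, although the gap between the highest vehicle and the lowest activin B value was small. The log2 change was 0.11 ± 0.06 (SE; 95% interval -0.02 to 0.25; unadjusted P = 0.0944, adjusted P = 0.981).

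**Figure D4:**
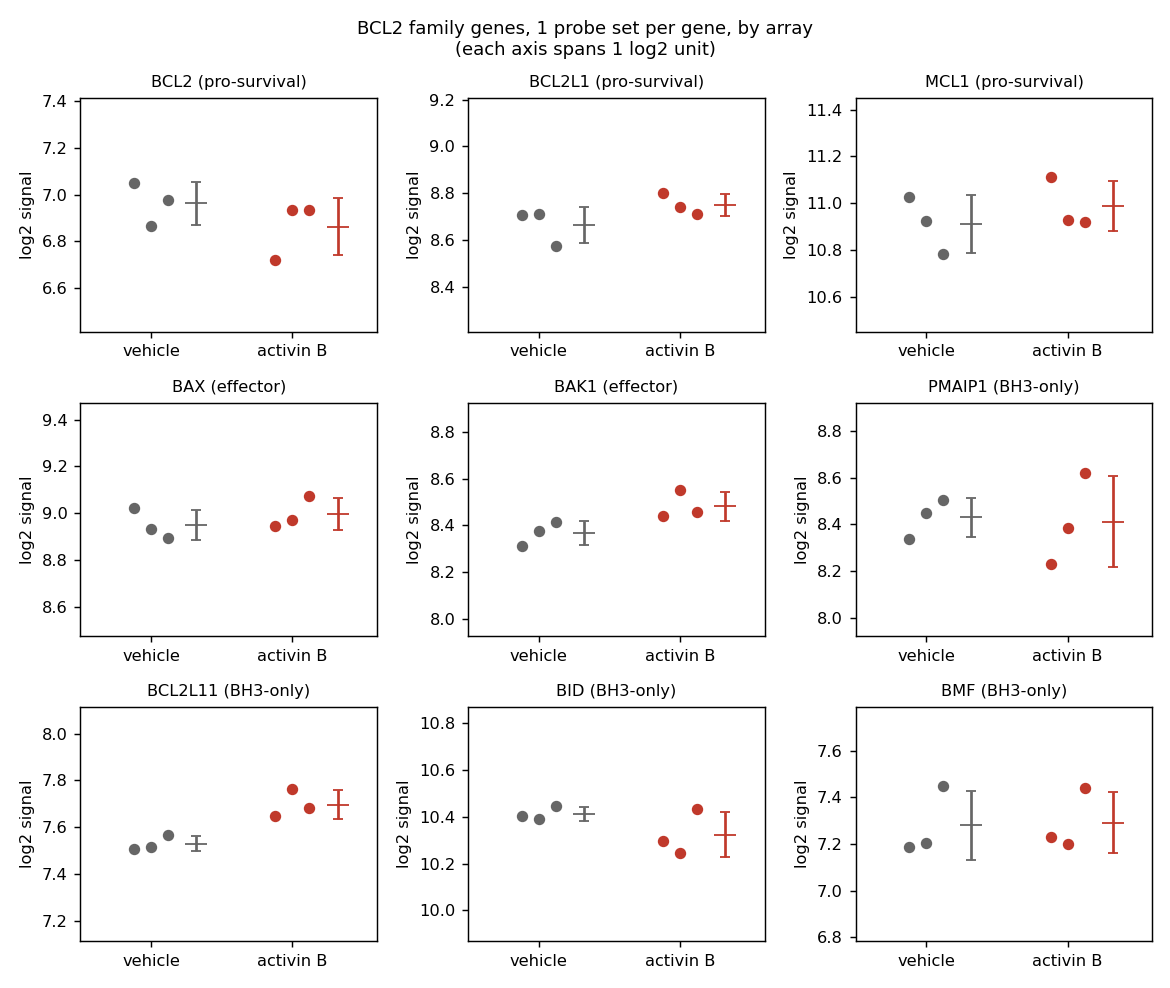
Log2 signal of each array for the probe set with the highest mean signal of 9 BCL2 family genes, with vehicle arrays grey, activin B arrays red, and the group mean and SD (n = 3) beside the points; each vertical axis spans 1 log2 unit and not from 0. The groups separate in BAK1 and BCL2L11 and overlap in the other 7 genes.

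Of the BH3-only genes, BCL2L11 and BMF were of interest as known TGF-beta targets. The 250 bases before each of their start sites in the table, 1 for BCL2L11 and 2 for BMF, are shown because SMAD proteins carry the signal of this ligand family to DNA; they are from RefSeq on GRCh38.p14 and 5′ to 3′ on the gene's strand. Capitals mark CAGAC on either strand, the SMAD box bound by SMAD3 and SMAD4, and GGCGCC, a GC-rich element that SMAD1 and SMAD5 can bind; these motifs do not overlap in the windows shown. The window of BCL2L11 is chr2:111120664-111120913 on the plus strand and those of BMF are chr15:40108880-40109129 and chr15:40106967-40107216 on the minus strand.
BCL2L11: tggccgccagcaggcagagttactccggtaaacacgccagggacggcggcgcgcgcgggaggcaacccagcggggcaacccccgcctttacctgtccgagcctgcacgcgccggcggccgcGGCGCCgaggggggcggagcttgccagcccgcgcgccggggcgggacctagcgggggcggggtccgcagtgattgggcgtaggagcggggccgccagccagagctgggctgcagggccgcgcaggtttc
BMF, first window: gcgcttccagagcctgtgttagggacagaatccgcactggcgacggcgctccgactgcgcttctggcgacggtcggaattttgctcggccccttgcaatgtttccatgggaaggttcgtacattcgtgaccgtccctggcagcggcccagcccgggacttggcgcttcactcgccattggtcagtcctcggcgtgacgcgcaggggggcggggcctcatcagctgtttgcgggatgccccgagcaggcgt
BMF, second window: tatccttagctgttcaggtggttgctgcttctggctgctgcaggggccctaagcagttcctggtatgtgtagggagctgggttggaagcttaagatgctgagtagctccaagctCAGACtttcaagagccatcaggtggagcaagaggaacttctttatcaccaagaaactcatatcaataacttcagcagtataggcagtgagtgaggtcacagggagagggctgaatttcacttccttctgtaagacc

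The window of BCL2L11 held 1 GGCGCC and no CAGAC, the first window of BMF held neither, and the second held 1 CAGAC and no GGCGCC. Windows were read for 9 members, all but MCL1, and some of these have more than 1 start site, with windows that can overlap. CAGAC on either strand stood in 8 of their 15 windows, against 38.0% of all 35116 windows of this length in the table, and GGCGCC stood in 6 of 15, against 16.4%. Counted by gene, 6 of the 9 had a window with CAGAC, against 42.8% of 27305 genes, and 4 had one with GGCGCC, against 19.0%. A gene with more windows has more chances to hold a motif, and 5 of the 15 windows were those of BID. Some windows of BID overlapped, so that the same CAGAC match and the same GGCGCC match were counted in more than 1 of them. Such matches describe the letters and do not show binding.

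BCL2L11, which encodes BIM, had 7 probe sets, and the brightest was the one that separated the groups. It read 7.50, 7.52 and 7.57 in vehicle and 7.65, 7.76 and 7.68 in activin B, so that every activin B array lay above every vehicle array. The log2 change of 0.17 ± 0.06 (SE; 95% interval 0.03 to 0.30) did not pass (unadjusted P = 0.0183, adjusted P = 0.859). Leaving out vehicle replicate 1 raised the unadjusted P to 0.0528, and leaving out activin B replicate 2 raised it to 0.0844. In the other 6 probe sets, changes ran from -0.07 to 0.04, 5 of them negative. Averaged over all 7, the change of BCL2L11 was 0.0032 (limma, adjusted P = 0.999 over all genes averaged this way). BIM is made in several splice forms, and which of them each probe set reads is not stated in the annotation.

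BMF, which in attached cells is known to be held at the cytoskeleton, was read by 1 probe set. It stood at 7.19, 7.21 and 7.45 in vehicle and 7.23, 7.20 and 7.44 in activin B, and replicate 3 was the highest in both groups. The log2 change was 0.01 ± 0.08 (SE; 95% interval -0.17 to 0.19; adjusted P = 0.999), and its sign turned in 4 of 17 other settings.

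PMAIP1, encoding NOXA, which binds MCL1, was read by 2 probe sets that differed in sign. The brighter read 8.34, 8.45 and 8.51 in vehicle and 8.23, 8.38 and 8.62 in activin B, where the activin B arrays spanned the vehicle ones on both sides. Its change was -0.02 ± 0.09 (SE; 95% interval -0.21 to 0.17; adjusted P = 0.999). The other had a change of 0.12 ± 0.07 (SE; 95% interval -0.03 to 0.27; adjusted P = 0.986).

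BID, which caspase-8 cleaves to link death receptors to mitochondria, was bright. It read 10.40, 10.39 and 10.45 in vehicle and 10.30, 10.25 and 10.43 in activin B, with activin B replicate 3 among the vehicle values. The change was -0.09 ± 0.07 (SE; 95% interval -0.23 to 0.05; adjusted P = 0.995), and those of the other 2 probe sets were 0.09 and less than 0.01.

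By class, the medians were 0.0018 over 14 pro-survival probe sets, 0.05 over 3 effector probe sets and less than 0.01 in size over 13 BH3-only probe sets. Probe sets of 1 gene share its transcript, so these counts are not independent measurements.

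Genes that act before and after the family were counted with 1 probe set per gene, and none of the 79 read in 7 lists passed in either direction by limma. At an unadjusted P under 0.05 there were 10, or 12.7%, where 5.89% of all genes had one. The 13 other BCL2 family genes had a median change of -0.03 and none had an unadjusted P under 0.05; BNIP3L, a mitophagy receptor, had -0.11 ± 0.07 and BAD, a BH3-only protein controlled by growth factor kinases, had -0.08 ± 0.06 (SE; adjusted P = 0.992 and 0.995). Of 11 apoptosome, caspase and mitochondrial genes, 2 had an unadjusted P under 0.05: APAF1, the scaffold of the apoptosome, with a log2 change of 0.17 ± 0.07, and HTRA2, a mitochondrial protease, with 0.13 ± 0.06 (SE; adjusted P = 0.901 and 0.942). In the 6 inhibitors of apoptosis none did, and NAIP and BIRC2 had 0.15 ± 0.07 and 0.09 ± 0.06 (SE; adjusted P = 0.959 and 0.995). BIRC3 was not analysed here.

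Among 13 death receptor genes the median change was -0.04, and 1 had an unadjusted P under 0.05. This was FAS, a death receptor, with a mean of 9.29 ± 0.09 in the vehicle group and of 9.10 ± 0.02 after activin B (SD, n = 3; log2 change -0.19; adjusted P = 0.782 by limma); CFLAR, an inhibitor of caspase-8 activation, had a change of -0.18 ± 0.08 (SE; adjusted P = 0.947). RIPK1 was not analysed here.

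Damage response and growth arrest genes had the most members with an unadjusted P under 0.05, 5 of 13, in both directions. SESN1, a stress-induced regulator of growth, had a log2 change of -0.30 ± 0.08, and CDKN1A, the p21 inhibitor of cyclin-dependent kinases, had 0.23 ± 0.07 (SE; adjusted P = 0.359 and 0.668). The median over the list was 0.04. FDXR was not analysed here.

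Of 12 FOXO and integrated stress response genes, which include activators of BCL2L11, BBC3 and PMAIP1, none had an unadjusted P under 0.05, and the median was -0.01. ATF3 and TRIB3, both stress-induced, had changes of 0.12 ± 0.08 and -0.09 ± 0.07 (SE; adjusted P = 0.995 for both). Among 11 genes for the turnover or anchoring of BCL2 proteins, 2 had an unadjusted P under 0.05. FBXW7, a ubiquitin ligase subunit that targets MCL1, had a change of -0.25 ± 0.07, and RNF144B, a ubiquitin ligase, had 0.17 ± 0.08 (SE, with adjusted P = 0.592 and 0.934 by limma). The ligase MARCHF5, listed also under its older name, was counted once.

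**Figure D5:**
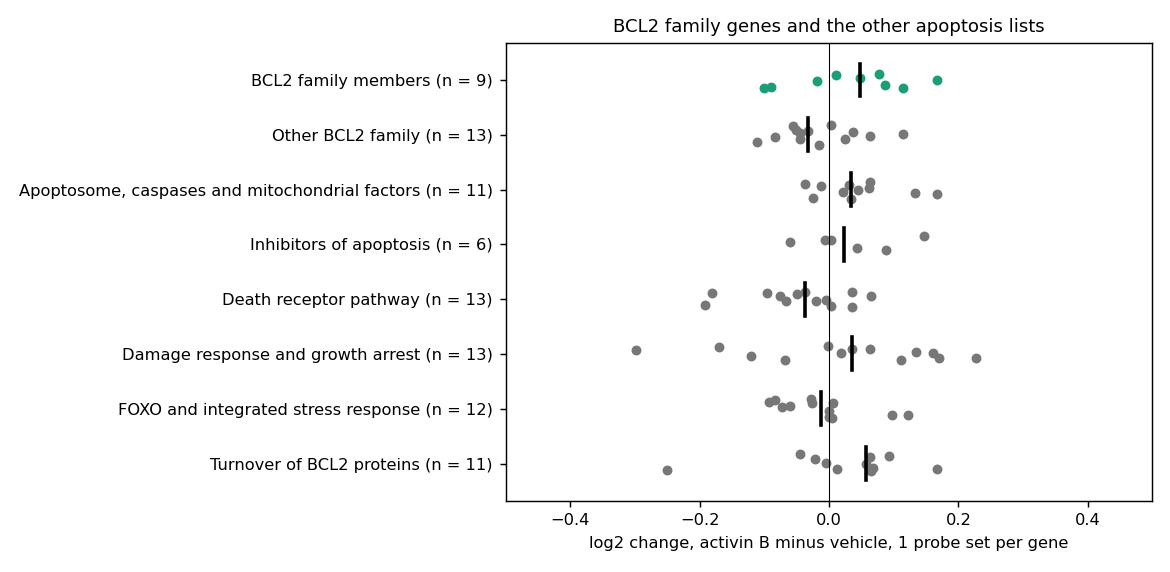
Log2 change, activin B minus vehicle, of 9 BCL2 family genes (green) and of the genes in 7 other apoptosis lists (grey), 1 probe set per gene; points are genes and black bars are list medians, which lie between -0.04 and 0.06. Changes run from -0.30 for SESN1 to 0.23 for CDKN1A, and no gene shown passed at an adjusted P under 0.05.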

How the data were processed

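Expression was measured in 3 activin B and 3 vehicle samples of SUM-LM1 cells, grouped and numbered by their titles, on Affymetrix Human Genome U133 Plus 2.0 arrays. The deposited values are log2 signals that the authors made from the scanner files with Chipster, by robust multiarray averaging. This step equalizes the arrays, which removes any shift shared by most transcripts. Names came from the platform annotation, and 62 array controls were left out. The probe set with the highest mean over all 6 arrays stood for a gene. The comparison used limma 3.58.1 under R 4.3.3 (empirical Bayes, 4 residual and 10.8 prior degrees of freedom), the kind of test the study used, with Benjamini-Hochberg adjustment over all 54613 probe sets. The number of arrays limits the precision. Errors of changes are standard errors of the model, and intervals are at 95%. The steps were tested on simulated data with independent noise. Recovery was required there only for changes larger than that of any member.

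Every probe set of the members was accounted for. Array values are given for the representing sets and for those with an unadjusted P under 0.05, and for other lists the called members or else the 2 with the smallest P. The members and lists were chosen with earlier results of these data known, and a few listed genes are not reported here. Alternatives were the replicate block, dim filters, normalizations, prior and weight settings, leaving out each array, and other probe set rules. Each alternative was adjusted over the probe sets or genes it tested. Figures were drawn with matplotlib 3.10.9.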

Additional observations from a re-analysis of the deposited data

How the results depend on the processing

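No member probe set passed in any of the 15 alternatives computed over probe sets, and no member gene in any of 17. Among the member probe sets whose array values are given, the lowest adjusted P by limma was 0.110, for MCL1 probe set 214057_at without vehicle replicate 1. BCL2, MCL1, BAX, BAK1 and BCL2L11 kept their direction in every alternative that read them, but not their size. With only sets of neither the _s_at nor the _x_at kind, MCL1 had 0.22 (limma, unadjusted P = 0.00718, adjusted P = 0.605). Probe sets 214056_at and 214057_at, followed because of their unadjusted P, kept it under 0.05 in all 15 alternatives and passed in none. The unadjusted P of BCL2L11 stayed under 0.05 in 14 of 17. With the mean of all probe sets of a gene, the log2 change turned to -0.0032 for BCL2L1, 0.05 for PMAIP1 and 0.0017 for BID, and BID had 0.093 with only sets of neither the _s_at nor the _x_at kind, which leave BAX and PMAIP1 without a value. BMF had -0.0099 with array weights. With single arrays left out, BCL2 ran from -0.149 to -0.0294, MCL1 from 0.0116 to 0.135, BAX from 0.0094 to 0.0838, BAK1 from 0.0792 to 0.138, BCL2L11 from 0.133 to 0.192, BCL2L1 from 0.0422 to 0.109, BID from -0.143 to -0.0497, PMAIP1 from -0.123 to 0.0715 and BMF from -0.0633 to 0.0955. The median over the member probe sets was 0.0253 with sets of mean 7 or more, which drop BCL2, and ran from -0.0043 to 0.0277 with single arrays left out.

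Over all probe sets, 40 were called higher and 26 lower. With single arrays left out, these counts ran from 25 to 50 and from 7 to 26; omitting vehicle replicate 1, 2 or 3 left 10, 7 or 12 lower calls, omitting activin B replicate 1 or 2 left 13 or 12, and omitting replicate 2 of vehicle or of activin B left 25 or 26 higher calls. The replicate block gave 53 higher and 44 lower calls and no member call. Deviations of same-numbered arrays from their group means correlated at 0.16, 0.04 and 0.19. No comparison with differently numbered arrays was made, so these values cannot decide whether the numbers mark pairs. The main comparison left the numbers out, and what same-numbered arrays share was not tested.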
